A study of Homo sapiens with 32 samples.

Results

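Cholesterol is made from acetyl-CoA through the mevalonate and sterol pathways or is taken up as low-density lipoprotein, and the same set of genes serves both routes. When sterols are scarce in the endoplasmic reticulum, the transcription factor SREBP2 is carried by SCAP to the Golgi, cut by the site-1 and site-2 proteases, and sent to the nucleus, where it binds sterol regulatory elements together with NF-Y and Sp1. When sterols are abundant, INSIG1 and INSIG2 hold the SCAP complex back, and INSIG1 is itself one of the targets, so that its transcript follows the same signal as those of the enzymes.

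The transcripts of 8 genes of this system, out of 60107 genes in the count table, were followed across the series. These were the regulators SREBF2 (which encodes SREBP2) and INSIG1 and the enzymes HMGCS1, MVD, IDI1, FDFT1, SQLE and DHCR7, taken by symbol. All 8 were measured and passed the filter on low counts in every comparison. The cells were U2OS, an osteosarcoma line, and HEK293T, an embryonic kidney line that carries the SV40 large T antigen. By label the series holds 4 libraries each of U2OS treated with camptothecin (CPT, a poison that traps topoisomerase 1 on DNA), U2OS treated with the vehicle DMSO, U2OS wild type, U2OS ATM KO (lacking the checkpoint kinase ATM), HEK293T ATM KO and HEK293T CPT, and 8 of HEK293T DMSO. HEK293T cells were harvested 48 h after a 24 h treatment, and U2OS cells, those given CPT or DMSO included, after 72 h of growth. The labels give no treatment time for U2OS CPT. For drug treatments in general, the study's methods state a medium change after 24 h and harvest 48 h later. The ATM KO line was an individually picked CRISPR/Cas9 clone per the study's methods. The study's results describe RNA sequencing of HEK293T cells given an ATM inhibitor rather than of a knockout. Libraries 18 to 21, labelled HEK293T ATM KO, are called the ATM inhibitor libraries from here on.

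The labels of the libraries numbered 1 to 17 go against their expression, which bears on 2 of the comparisons below. The summed level of 10 markers of U2OS was 3646 to 7538 counts per 1000000 (CPM) in libraries 26 to 33 (U2OS CPT and DMSO) and 69.6 to 110 CPM in libraries 18 to 25 (HEK293T). In libraries 1 to 8 it was 2254 to 5409 CPM, although 7 of these are labelled HEK293T, and in 10 to 17 it was 46.9 to 112 CPM, although 7 of these are labelled U2OS. NEFM, a neurofilament gene of HEK293T cells, gave 0 to 1.70 CPM in libraries 1 to 8 and 111 to 320 CPM in 10 to 17. In all, 14 of the 32 libraries resembled the other cell line. Of the 10 markers listed for HEK293T, 6 were higher in HEK293T DMSO than in U2OS DMSO, 3 (NEFL, SALL4 and CDH2) were lower and STMN2 was not called. Libraries 1 to 17 are therefore named by number. The set of libraries 10, 12, 14 and 16 (labelled U2OS ATM KO) was compared with 11, 13, 15 (U2OS wild type) and 17 (HEK293T DMSO), and the set of 2, 4, 6 and 8 (HEK293T CPT) with 3, 5, 7 (HEK293T DMSO) and 1 (U2OS wild type), and no direction for CPT or for the loss of ATM is drawn from either. ATM's own transcript did not separate these sets. It stood at 66.9, 61.2, 61.1 and 35.4 CPM in libraries 2, 4, 6 and 8 against 59.3 to 78.2 CPM in 1, 3, 5 and 7, and at 27.9 to 36.5 CPM in 10, 12, 14 and 16 against 21.1 to 33.2 CPM in 11, 13, 15 and 17, but tags at a transcript's 3′ end need not be lost in a knockout. The libraries held 1232674 to 6362433 counts on genes (median 3359463.5), so that a floor of 3 counts stands at 2.43 CPM in the shallowest and 0.472 CPM in the deepest library, for counting error only. Levels are given as CPM of a library total adjusted by the TMM method, which removes a shift of -0.16 log2 units between U2OS CPT and DMSO and of -0.21 between U2OS DMSO and HEK293T DMSO.

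The 8 genes lie on 7 chromosomes (GRCh38, GENCODE 29; the build used for counting is not given in the sources used here). SREBF2 is at chr22:41833079-41907308 on the plus strand, INSIG1 at chr7:155297776-155310235 (plus), HMGCS1 at chr5:43289395-43313512 (minus), MVD at chr16:88651935-88663161 (minus), IDI1 at chr10:1039152-1049170 (minus) and DHCR7 at chr11:71428193-71452868 (minus). FDFT1 and SQLE share a further chromosome, on opposite arms, both on its plus strand. Exons of other genes overlap SREBF2 (SREBF2-AS1, mean 1.35 CPM), FDFT1 (AC069185.1, mean 3.45 CPM), IDI1 (IDI2-AS1, mean 0.111 CPM) and HMGCS1 (AC114947.2, mean 0.0123 CPM), each on the opposite strand, and whether counting used the strand is not given in the sources used here.

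Promoter windows of 300 bases from RefSeq (GRCh38.p14) were found for 6 of the 8 genes, 10 windows in all, and were searched on both strands for the letters CACNCCAC (a form of the sterol regulatory element), CCAAT (the core bound by NF-Y) and GGGCGG (the core bound by Sp1). The CACNCCAC letters were found in 1 window each of SREBF2, IDI1 and INSIG1, that is in 3 of 10 windows, and in 5.87% of all 35116 windows. CCAAT was found in 7 of the 10 windows, in all 6 genes, and in 34.6% of all windows, and GGGCGG in 9 of 10 and in 45.0% of all. Shown here are the 250 bases before a transcription start of both regulators, which hold the CACNCCAC letters, and of HMGCS1 and MVD. The windows shown of these 2 enzymes hold CCAAT letters and no CACNCCAC letters. A further window of HMGCS1, at chr5:43313132-43313431, holds neither and is not shown. Capitals mark matches to CACNCCAC or CCAAT on either strand.
SREBF2 (chr22:41832855-41833104, plus strand): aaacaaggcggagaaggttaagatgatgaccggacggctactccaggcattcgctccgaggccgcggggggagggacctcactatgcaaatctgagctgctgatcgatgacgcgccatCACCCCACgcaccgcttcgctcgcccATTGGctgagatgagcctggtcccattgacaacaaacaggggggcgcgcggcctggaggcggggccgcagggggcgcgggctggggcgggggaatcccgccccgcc
INSIG1 (chr7:155297628-155297877, plus strand): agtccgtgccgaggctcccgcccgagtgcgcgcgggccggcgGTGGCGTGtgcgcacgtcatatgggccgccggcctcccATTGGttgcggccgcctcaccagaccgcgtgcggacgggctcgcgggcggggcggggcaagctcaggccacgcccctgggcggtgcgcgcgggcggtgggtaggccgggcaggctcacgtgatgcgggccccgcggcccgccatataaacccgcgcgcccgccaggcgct
HMGCS1 (chr5:43313413-43313662, minus strand): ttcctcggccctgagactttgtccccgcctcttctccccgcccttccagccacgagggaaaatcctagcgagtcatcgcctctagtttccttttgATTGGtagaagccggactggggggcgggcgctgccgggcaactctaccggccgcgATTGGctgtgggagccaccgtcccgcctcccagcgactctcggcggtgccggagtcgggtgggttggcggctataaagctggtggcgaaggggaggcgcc
MVD (chr16:88663092-88663341, minus strand): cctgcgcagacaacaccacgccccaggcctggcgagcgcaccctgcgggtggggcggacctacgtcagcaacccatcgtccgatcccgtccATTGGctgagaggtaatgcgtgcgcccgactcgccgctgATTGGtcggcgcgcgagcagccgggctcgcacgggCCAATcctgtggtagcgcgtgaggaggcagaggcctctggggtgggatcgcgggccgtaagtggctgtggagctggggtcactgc
In SREBF2 the CACNCCAC match begins 132 bases before the start and the CCAAT match 106 bases before it, and in INSIG1 they begin 208 and 170 bases before the start. HMGCS1 holds CCAAT letters 155 and 100 bases before the start shown, and MVD 159, 120 and 85 bases before its own. These are matches of letters, not measured binding sites.

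In U2OS cells, 5 of the 6 enzymes were higher with CPT than with DMSO, while both regulators were lower. HMGCS1, the synthase that commits acetyl units to HMG-CoA, rose most, and DHCR7, the last reductase of the Kandutsch-Russell route, came next. The counts with an adjusted p under 0.05 (edgeR's quasi-likelihood test, Benjamini-Hochberg adjustment over all genes) were 5 higher and 2 lower of 8, against 16.6% of the 19080 genes tested higher and 15.3% lower. By the study's cutoff, which also asks for a log2 fold change over 1 in size, 1 of 8 was called, against 13.5% of all genes.

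HMGCS1 stood at 576, 536, 542 and 482 CPM in the CPT libraries 26 to 29 and at 238, 208, 260 and 220 CPM in the DMSO libraries 30 to 33. The lowest CPT library was far above the highest DMSO library. The log2 fold change was 1.21 (SE 0.11, edgeR adjusted p = 2.27e-10). DHCR7 gave 93.8, 82.2, 89.2 and 87.7 CPM with CPT and 55.1, 61.3, 46.4 and 44.0 CPM with DMSO. Its groups did not overlap either, and its log2 fold change was 0.78 (SE 0.12, edgeR adjusted p = 9.13e-06). FDFT1, squalene synthase, the first enzyme committed to sterols, gave 187, 200, 199 and 190 CPM with CPT and 139, 150, 135 and 134 CPM with DMSO, a log2 fold change of 0.49 (SE 0.11, edgeR adjusted p = 0.000555). SQLE, squalene epoxidase, which adds the oxygen that later closes the ring system, gave 617, 652, 679 and 624 CPM with CPT and 432, 526, 492 and 528 CPM with DMSO. Both squalene enzymes were higher in every CPT library than in any DMSO library, and the log2 fold change of SQLE was 0.39 (SE 0.11, edgeR adjusted p = 0.0051). The share of all genes without overlap between these groups was not counted.

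The 2 enzymes of the isoprenoid steps between HMG-CoA and squalene had lower levels and more spread. MVD, the decarboxylase that forms isopentenyl pyrophosphate, gave 18.6, 14.5, 24.8 and 26.4 CPM with CPT and 16.1, 14.8, 15.2 and 14.2 CPM with DMSO. Library 27 lay among the DMSO libraries, and the other CPT libraries lay above all of them. The log2 fold change of 0.49 (SE 0.18) just passed the threshold (edgeR adjusted p = 0.0388) and missed it without library 28, 29, 31, 32 or 33 (adjusted p = 0.0634 to 0.182). IDI1, the isomerase that makes dimethylallyl pyrophosphate, gave 23.3, 28, 21.2 and 19 CPM with CPT against 17.9, 19.6, 19.8 and 16.5 CPM with DMSO, and its log2 fold change of 0.32 (95% interval -0.01 to 0.66) did not pass (edgeR adjusted p = 0.136).

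INSIG1 fell with CPT, from 77.3, 91.0, 78.9 and 69.5 CPM to 42.2, 68.7, 62.1 and 56.0 CPM, with library 26 the lowest. The groups did not overlap, and the log2 fold change was -0.46 (SE 0.14, edgeR adjusted p = 0.00944), but without library 26 it was -0.33 (adjusted p = 0.0599). SREBF2 gave 83.0, 84.0, 98.7 and 107 CPM with CPT and 103, 148, 112 and 127 CPM with DMSO. Library 29 with CPT exceeded library 30 with DMSO. The log2 fold change of -0.39 (SE 0.13, edgeR adjusted p = 0.0186) missed the threshold without library 26, 27 or 31 (adjusted p = 0.0667, 0.0782 and 0.0753).

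**Figure D1:**
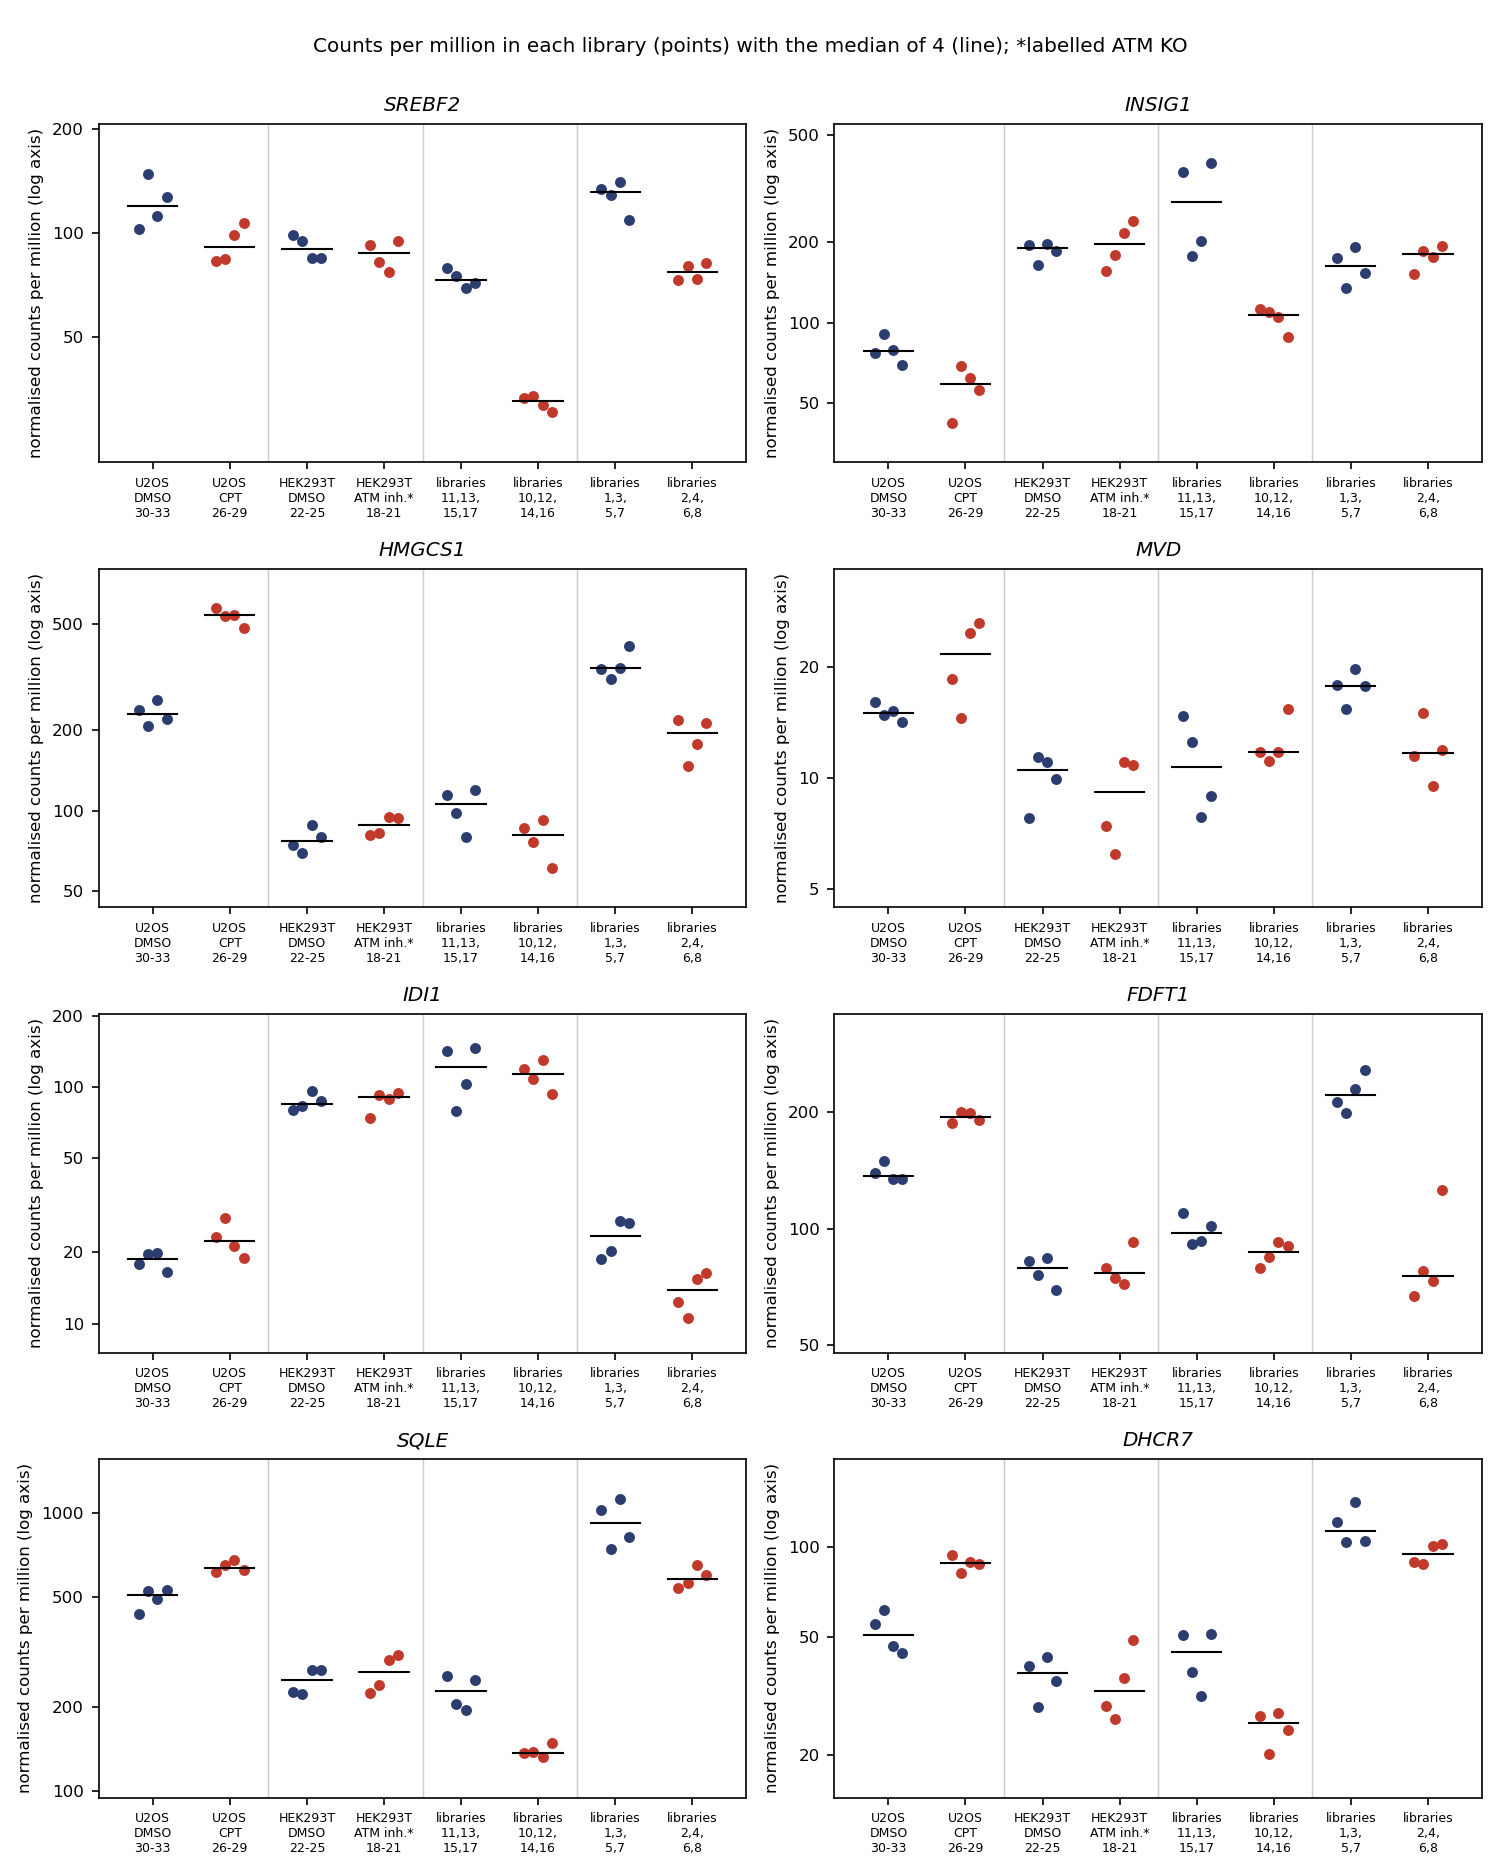
Normalised CPM (log axis) of the 8 genes in each of the 32 libraries, with 1 point a library and a line at the median of 4; blue points are the second group and red points the first group of each comparison, and the star marks libraries labelled ATM KO. HMGCS1 sits at 482 to 576 CPM in U2OS CPT and at 208 to 260 CPM in U2OS DMSO, and INSIG1 at 177 to 395 CPM in libraries 11, 13, 15 and 17 and at 88.1 to 112 CPM in 10, 12, 14 and 16.

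The other genes of the pathway in U2OS did not move as 1 block with CPT. Of 16 other synthesis enzymes, 6 rose, 3 fell and 7 did not pass, with a median log2 fold change of 0.34 against 0.01 over all genes tested. NSDHL (log2 fold change 0.95) and MSMO1 (0.86), both late sterol enzymes, and ACAT2 (0.71), which makes acetoacetyl-CoA, were among those that rose. Of the 10 genes of SREBP processing and control, 2 rose (among them UBE2G2, a ubiquitin-conjugating enzyme, by 0.47) and 2 fell (SREBF1, which encodes SREBP1, by 1.09, and RNF139 by 0.43), with a median of -0.09. Of 11 uptake and trafficking genes tested of 12, 6 rose and 2 fell (median 0.43). SCARB1, the receptor for high-density lipoprotein, rose by 1.11, LRP1 by 1.15 and the lysosomal lipase LIPA by 0.68. MYLIP, a ubiquitin ligase that limits lipoprotein uptake, fell by 1.18.

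Among 9 tested genes of efflux, storage and LXR, 3 rose and 3 fell (median 0.10). The efflux pump ABCG1 fell by 2.68 on the log2 scale and NR1H2 (LXR beta) by 0.60, while the cholesterol esterifying enzyme SOAT1 rose by 0.95 and the ester hydrolase NCEH1 by 0.58. The list of 11 SREBP targets, mostly of fatty acid synthesis, split into 3 that rose and 3 that fell (median -0.01), with ACLY up by 0.60, SCD down by 0.39 and ELOVL6 down by 0.36. TMEM97, up by 0.47, is on that list but is a sterol-regulated gene of cholesterol trafficking rather than of fatty acid synthesis. In the other branches of the mevalonate pathway 1 rose (DHDDS, 0.84) and 2 fell (COQ2 by 0.93 and FNTB by 0.88) of 9. The U2OS markers moved as well between these groups. Of the 10, 9 rose with CPT, and their summed level was 6389 to 7538 CPM with CPT and 3646 to 4826 CPM with DMSO. Their part in the result was not tested. In bulk samples like these, a change in the RNA of each cell and a change in which cells survive cannot be told apart.

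HEK293T cells with the ATM inhibitor showed no called change in any of the 8 genes. HMGCS1 gave 81.0, 82.6, 95.1 and 93.8 CPM in libraries 18 to 21 against 74.5, 69.6, 88.3 and 79.7 CPM in the DMSO libraries 22 to 25, and INSIG1 155, 178, 216 and 239 CPM against 195, 164, 197 and 185 CPM. For all 8 genes the groups overlapped, but the share of all genes with overlap was not counted. The log2 fold changes ran from -0.18 (MVD, 95% interval -0.60 to 0.25) to 0.19 (HMGCS1, 95% interval -0.03 to 0.41), with a smallest edgeR adjusted p of 0.914. For HMGCS1, then, the interval leaves out changes above 0.41. Over all 18413 genes 0% were called higher, 0.00543% (1 gene) lower and 0% by the study's cutoff, with 1019 genes at an unadjusted p under 0.05 and none of the 8 among them. Of the other pathway lists 0 genes were called. SREBF1 (-0.14) did not pass either.

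Libraries 10, 12, 14 and 16 held less of both regulators than libraries 11, 13, 15 and 17. In this comparison 0 of the 8 genes were higher and 4 were lower, against 17.6% higher and 17.3% lower of 19464 genes. By the study's cutoff 2 of 8 (SREBF2 and INSIG1) were called, against 14% of all genes.

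SREBF2 gave 33.4, 33.7, 31.8 and 30.4 CPM in libraries 10, 12, 14 and 16 and 79.1, 75.3, 69.5 and 71.6 CPM in 11, 13, 15 and 17. The libraries within each set lay close together, and the sets were far apart. The log2 fold change was -1.18 (SE 0.12, edgeR adjusted p = 1.18e-07). INSIG1 gave 112, 109, 105 and 88.1 CPM against 364, 177, 202 and 395 CPM. Libraries 11 and 17 stood well above 13 and 15, which in turn stood above all 4 of the even-numbered set, and the log2 fold change was -1.44 (SE 0.19, edgeR adjusted p = 3.83e-06). SQLE gave 137, 137, 132 and 149 CPM against 258, 206, 196 and 250 CPM (log2 fold change -0.69, SE 0.11, edgeR adjusted p = 4.39e-05), and DHCR7 gave 27, 20.1, 27.8 and 24.3 CPM against 50.8, 38.1, 31.6 and 51.1 CPM (log2 fold change -0.78, SE 0.16, edgeR adjusted p = 0.000642). In INSIG1, SQLE and DHCR7 alike, libraries 11 and 17 were the 2 highest of the 8, as also in HMGCS1, FDFT1 and IDI1. SREBF2 and MVD did not share this order.

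HMGCS1, FDFT1, IDI1 and MVD were not called between these sets. HMGCS1 gave 86.5, 76.6, 92.7 and 60.9 CPM against 114, 98.6, 79.8 and 119 CPM, with a log2 fold change of -0.36 (95% interval -0.67 to -0.06, edgeR adjusted p = 0.0582). It passed without library 13, 14 or 15 (adjusted p = 0.0491, 0.0348 and 0.0286). FDFT1 had a log2 fold change of -0.18 (95% interval -0.41 to 0.05), IDI1 of -0.04 (-0.37 to 0.29) and MVD of 0.20 (-0.21 to 0.62), and the sign of IDI1 turned under several normalizations and filters. Without library 17, the set keeps only libraries labelled U2OS wild type against U2OS ATM KO, and again 4 genes were lower and 0 higher.

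Of the 10 listed genes of SREBP processing and control, 5 were lower and 2 higher in libraries 10, 12, 14 and 16 (median -0.40, against 0.04 over all genes), with SREBF1 at -1.27, the escort SCAP at -1.18, the site-2 protease MBTPS2 at -0.98 and RNF145 at 0.56. Of the 16 other synthesis enzymes 3 were lower (LSS -0.80, PMVK -0.48, LBR -0.42) and 1 higher (TM7SF2 0.89). Of the uptake genes 4 of 11 were lower, among them VLDLR (-0.94) and LIPA (-0.71), and MYLIP was higher (0.93). Of the list of mostly fatty acid genes 6 of 11, TMEM97 among them, were lower and 0 higher (SCD -1.34, FADS1 -0.67, ELOVL5 -0.61, ACACA -0.51). Of the efflux genes 4 of 9 were higher and 1 lower, including OSBP (0.38) and OSBPL1A (-0.64), and 4 of 9 genes of the other mevalonate branches were lower, among them COQ2 (-0.93), NUS1 (-0.88) and FNTB (-0.87). The share of each library's counts that fell in the table's summary lines, outside genes, also moved with the sets, from 10.9% to 12.4% in libraries 11, 13, 15 and 17 to 17% to 19.8% in 10, 12, 14 and 16. The summed U2OS markers, low in all 8 of these libraries, were 85.6 to 112 CPM in 10, 12, 14 and 16 and 46.9 to 62.0 CPM in 11, 13, 15 and 17, with 3 of the 9 tested higher and 0 lower. The part of either in the result was not tested.

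Libraries 2, 4, 6 and 8 held less of most of the 8 transcripts than libraries 1, 3, 5 and 7. In this comparison 6 genes were lower and 0 higher, against 6.56% of 18591 genes lower and 6.43% higher, and 1 of 8 (FDFT1) passed the study's cutoff, against 5.24% of all genes. HMGCS1, MVD, IDI1 and FDFT1 were among the 6.

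FDFT1 gave 66.9, 77.8, 73.1 and 126 CPM in libraries 2, 4, 6 and 8 and 213, 199, 229 and 256 CPM in 1, 3, 5 and 7, a log2 fold change of -1.37 (SE 0.16, edgeR adjusted p = 3.11e-09). Library 8 stood above the rest of its set but below all of the other. HMGCS1 gave 219, 147, 179 and 212 CPM against 341, 310, 342 and 414 CPM (log2 fold change -0.91, SE 0.15, edgeR adjusted p = 1.26e-05). IDI1 gave 12.3, 10.6, 15.5 and 16.4 CPM against 18.7, 20.3, 27 and 26.5 CPM (log2 fold change -0.74, SE 0.20, edgeR adjusted p = 0.00771). The sets did not overlap in any of these 3 enzymes, but the share of all genes without overlap was not counted. MVD gave 11.4, 15, 9.50 and 11.9 CPM against 17.9, 15.3, 19.8 and 17.7 CPM, where library 4 came close to library 3. Its log2 fold change of -0.62 (SE 0.22) lay at the threshold (edgeR adjusted p = 0.0495), and the call was lost without library 1, 2, 5, 6 or 7 (adjusted p = 0.0586 to 0.219). The call for MVD was also lost with DESeq2 (adjusted p = 0.114). In edgeR it was lost with upper quartile normalization (0.0552), with no filter (0.055) and in 1 fit of all 32 libraries (0.0519).

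SQLE gave 540, 561, 653 and 600 CPM against 1030, 745, 1123 and 823 CPM (log2 fold change -0.66, SE 0.16, edgeR adjusted p = 0.00201), with libraries 1 and 5 the highest of the whole series. SREBF2 gave 73.1, 80.6, 73.6 and 81.9 CPM against 135, 129, 141 and 110 CPM (log2 fold change -0.73, SE 0.15, edgeR adjusted p = 0.000267). DHCR7, at 88.9, 87.9, 101 and 102 CPM against 122, 104, 142 and 105 CPM, did not overlap between the sets but did not pass (log2 fold change -0.31, 95% interval -0.61 to -0.01, edgeR adjusted p = 0.176). INSIG1 stood at 152, 186, 175 and 193 CPM against 174, 135, 192 and 153 CPM, with overlapping sets and a log2 fold change of 0.11 (95% interval -0.19 to 0.41). Without library 1, each set carries a single label, HEK293T CPT or HEK293T DMSO. Then 5 of the 8 genes were lower, MVD no longer among them, while 1934 of all genes were called.

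**Figure D2:**
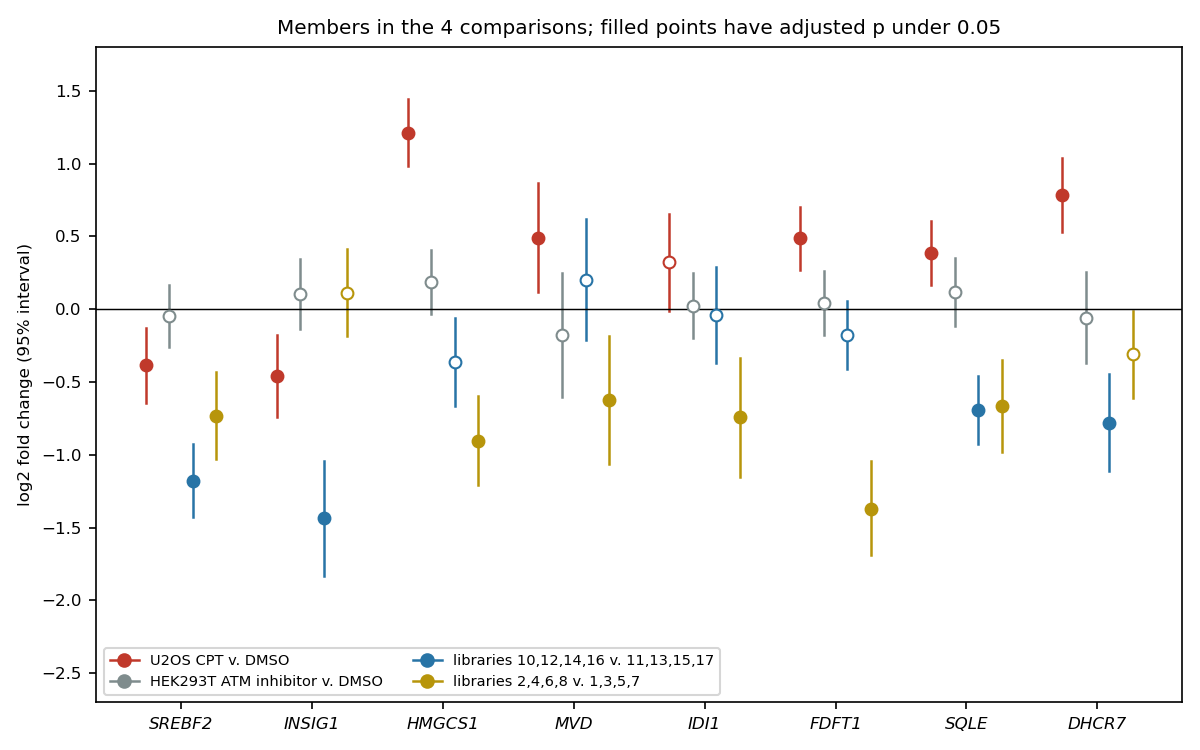
Log2 fold change of each of the 8 genes (points) with its 95% interval (lines) in the 4 comparisons of treated, knockout or numbered sets, filled where the adjusted p was under 0.05. The red points of U2OS CPT lie above 0 for the 6 enzymes and below 0 for SREBF2 and INSIG1, and the lowest points are INSIG1 at -1.44 in libraries 10, 12, 14 and 16 and FDFT1 at -1.37 in libraries 2, 4, 6 and 8.

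FDFT1 was the only one of the 8 past the study's cutoff in libraries 2, 4, 6 and 8, so its neighbours on the chromosome were examined (a choice made after its values were seen). The 5 nearest genes on each side with a mean log2 CPM over 3, which reach out to 5360 kb, all had log2 fold changes below 0 in this comparison, from -0.67 (GATA4) to -0.05 (DLC1), with a median of -0.44. Of these 10, 1 was called lower (TNKS, -0.54, edgeR adjusted p = 0.0352). The nearest on either side, NEIL2 at 26 kb and CTSB at 47 kb, stood at -0.50 (SE 0.20) and -0.43 (SE 0.15). In U2OS CPT against DMSO the same 10 genes had a median of 0.03 with 4 higher and 1 lower, and between libraries 10 to 17 a median of -0.15 with 0 higher and 3 lower. The part of the neighbourhood in FDFT1's value was not tested.

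**Figure D3:**
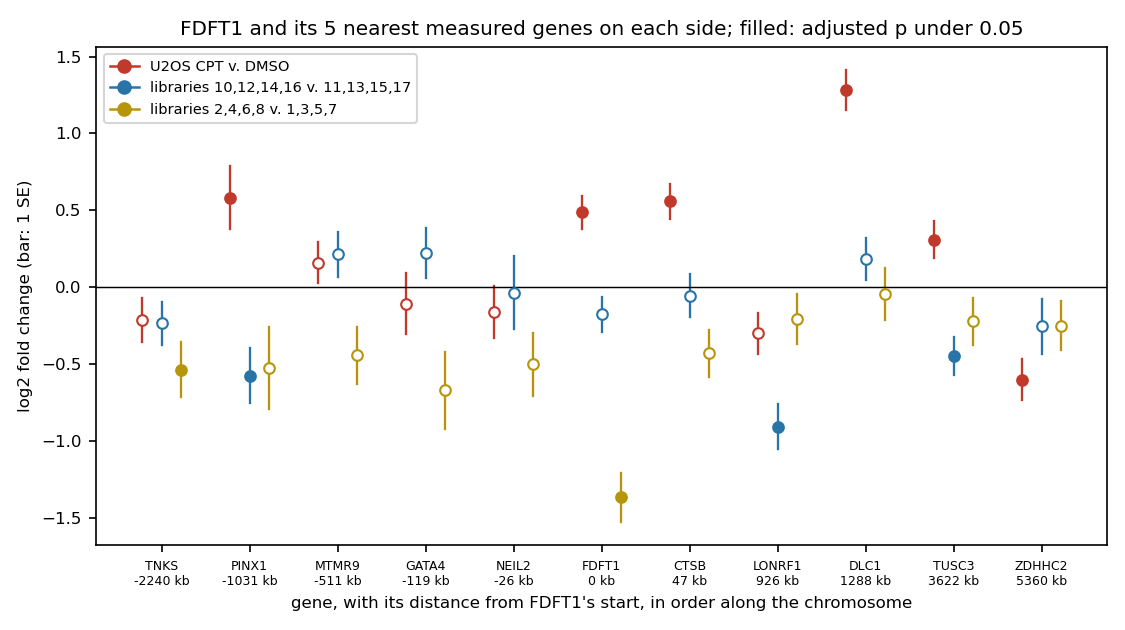
Log2 fold change (points, with bars of 1 SE) of FDFT1 and of the 5 nearest measured genes on each side of it, ordered along the chromosome with the distance in kb, in 3 comparisons; filled points have an adjusted p under 0.05. In libraries 2, 4, 6 and 8 against 1, 3, 5 and 7 all 10 neighbours lie below 0 and FDFT1 lies lowest, at -1.37.

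Of the 16 other synthesis enzymes, 5 were lower and 0 higher in libraries 2, 4, 6 and 8 (median -0.14 against 0.04 over all genes). These included SC5D (log2 fold change -0.76), MSMO1 (-0.72) and ACAT2 (-0.70). Of the 11 uptake genes, 0 were called. Of the SREBP processing genes UBE2G2 was higher (0.67) and RNF145 lower (-0.50), and SREBF1 was not called (-0.13). Of the list of mostly fatty acid genes 3 of 11 were lower (FADS1 -0.59, FADS2 -0.49, ELOVL5 -0.47), NCEH1 was the 1 efflux or storage gene called (-0.53), and in the other mevalonate branches NUS1 was lower (-1.05) and PDSS1 (0.61) and FNTA (0.48) higher. The summed U2OS markers were 2254 to 2781 CPM in libraries 2, 4, 6 and 8 and 3861 to 5409 CPM in 1, 3, 5 and 7, with 5 of 10 lower and 3 higher, and their part in the result was not tested.

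**Figure D4:**
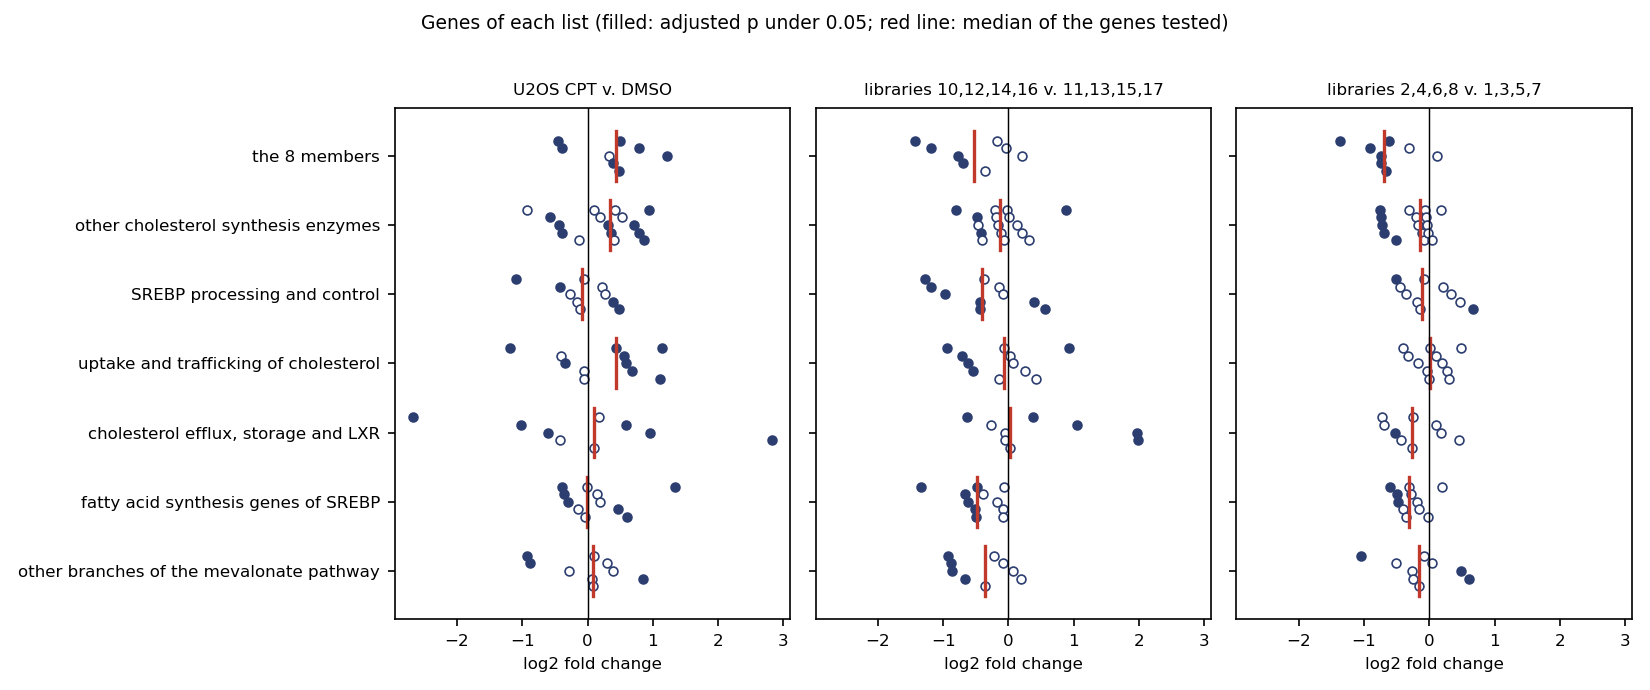
Log2 fold change of each gene tested (points, filled where the adjusted p was under 0.05) in the 8 genes and in 6 lists of related genes, with a red line at each list's median, in 3 comparisons. The 8 genes have medians of 0.44 in U2OS CPT, -0.53 in libraries 10, 12, 14 and 16 and -0.70 in libraries 2, 4, 6 and 8.

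Whether the 8 genes differed between comparisons was tested on the difference of the log2 fold changes, in a fit with the 16 libraries of both. Between U2OS CPT and libraries 10 to 17, 6 of 8 genes differed, against 20.3% of 22363 genes. HMGCS1 differed by 1.59 (95% interval 1.22 to 1.96, edgeR adjusted p = 4.49e-09), DHCR7 by 1.57 (1.15 to 1.98), SQLE by 1.09 (0.76 to 1.41), INSIG1 by 0.99 (0.50 to 1.48), SREBF2 by 0.80 (0.44 to 1.16) and FDFT1 by 0.67 (0.35 to 0.98). For SREBF2 and INSIG1 both comparisons lay below 0, and U2OS CPT lay nearer to it. MVD (0.29, -0.28 to 0.86) and IDI1 (0.38, -0.10 to 0.85) did not differ at this threshold. Between U2OS CPT and libraries 1 to 8, 7 of 8 genes differed, against 17.7% of 20539 genes, with HMGCS1 (2.12, 95% interval 1.73 to 2.51) and FDFT1 (1.85, 1.44 to 2.26) farthest apart. SREBF2 was the exception (0.35, -0.04 to 0.73, edgeR adjusted p = 0.236). INSIG1 differed the other way (-0.57, edgeR adjusted p = 0.0386), a call that was lost when library 3, 4, 6, 7, 8, 26, 29, 31 or 32 was left out (adjusted p = 0.0536 to 0.13). Between U2OS CPT and the ATM inhibitor in HEK293T, 4 of 8 differed, against 15.4% of 21441 genes. These were HMGCS1 (1.03), DHCR7 (0.85), INSIG1 (-0.56) and FDFT1 (0.45). The call for INSIG1 was lost with DESeq2 (adjusted p = 0.0567) and without library 20, 21, 23, 26, 29, 31 or 32 (0.0583 to 0.132). That for FDFT1 was lost with no filter on low counts (edgeR adjusted p = 0.0647) and without library 19, 20, 22 or 24 (0.0702 to 0.0828), so that 2 genes were called without library 20. In this last pair the cell line and the treatment cannot be told apart.

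Without damage the 2 lines held these transcripts at different levels, and not in 1 direction. In U2OS DMSO libraries 30 to 33 against HEK293T DMSO libraries 22 to 25, which are the control groups of comparisons above, 6 genes were higher and 2 lower, against 32% of 19739 genes higher and 30.1% lower. By the study's cutoff 3 of 8 were called, against 39.9% of all genes. HMGCS1 was 232 ± 22.4 CPM (SD, n = 4) in U2OS and 78.0 ± 8.0 CPM (SD, n = 4) in HEK293T, and SQLE was 495 ± 44.7 and 249 ± 27.5 CPM (SD, n = 4 each). IDI1 ran the other way, at 18.5 ± 1.56 CPM in U2OS and 86.4 ± 7.02 CPM in HEK293T (log2 fold change -2.22, SE 0.13, edgeR adjusted p = 1.87e-16), and so did INSIG1, at 79.2 ± 8.88 and 185 ± 15 CPM (log2 fold change -1.22, SE 0.11, edgeR adjusted p = 2.73e-11). FDFT1 (0.85), MVD (0.59), DHCR7 (0.50) and SREBF2 (0.45) were higher in U2OS, as was SREBF1 (1.32). For all 8 genes the groups did not overlap, but the share of all genes without overlap was not counted. The low IDI1 level was shared by libraries 1 to 8, at 10.6 to 27 CPM, and the high level by libraries 10 to 17, at 79.3 to 145 CPM, the same split as that of the cell line markers.

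Among themselves the genes varied together in part. After log2 CPM was centred within each of the 4 sets of 8 libraries compared, the Pearson correlation over 32 libraries was highest for SQLE and DHCR7 (0.78), IDI1 and FDFT1 (0.75), HMGCS1 and FDFT1 (0.72) and SREBF2 and INSIG1 (0.71). It was 0.03 for HMGCS1 and INSIG1 and -0.15 for MVD and INSIG1. Against the mean of all 8, SQLE came closest (0.92) and MVD lay farthest (0.44). CLPTM1L (0.84), FPGS (0.84), SIRPA (0.82) and ARV1 (0.81) were among the 5 genes of 9520 most like that mean, and none of these 4 is in the lists of related genes. These values describe the same libraries, share their depth and include the differences between the groups compared.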

How the data were processed

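RNA was read at transcript 3′ ends with a QuantSeq 3′ FWD kit with UMIs. The authors processed the reads with the Lexogen QuantSeq UMI pipeline on BlueBee and deposited whole-number counts per gene for 32 libraries. Aligner settings, genome build and annotation are not given in the sources used here. The table also holds 92 spike-in rows (0 to 1 count a library) and 5 summary rows (10.9% to 40.6% of all counts), which were left out of library sizes and tests. Tags at 3′ ends do not scale with transcript length.

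The main test was the quasi-likelihood test of edgeR 4.0.16 (R 4.3.3) after TMM normalization, on genes above 1 count in 2 or more of the libraries compared. That filter is the study's own, and its likelihood ratio test and DESeq2 1.42.0 served as alternatives. Each fit held the libraries compared. Adjusted p-values are Benjamini-Hochberg values over all genes tested, and genes were called at 0.05. The scripts were tested on simulated counts. Symbols came from GENCODE 29 for 56531 of the 60107 genes. Replicates are 4 independent repeats per the study, and p-values measure the spread between them. Intervals are 95%.

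The 8 genes and all lists were chosen with earlier results of these data known. Besides the 8, SREBF1 was named in every comparison, with up to 4 genes a list with the largest log2 fold change among those called with a mean log2 CPM over 3, ATM, cell line markers, and the 5 genes most like the mean of the 8. Some genes that this rule names are not reported here, though counts and medians of the lists include them. Alternatives covered the test, normalization, filter, 1 fit of all 32 libraries, each library left out and groups by label.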

Additional observations from a re-analysis of the deposited data

Results flagged for a closer look

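The change of 6 genes differed between U2OS CPT against DMSO and libraries 10, 12, 14 and 16 against 11, 13, 15 and 17. The test was edgeR's quasi-likelihood test of the difference with Benjamini-Hochberg adjustment. By the same test, 4544 of all 22363 genes tested (20.3%) differed. The differences in log2 fold change were 1.59 for HMGCS1 (adjusted p = 4.49e-09), 1.57 for DHCR7 (1.07e-07), 1.09 for SQLE (1.07e-06), 0.99 for INSIG1 (0.00217), 0.80 for SREBF2 (0.000747) and 0.67 for FDFT1 (0.00121). By label the second comparison is one of ATM KO against wild type with 1 library of HEK293T DMSO, and by its markers it is of HEK293T-like cells, so cell line and condition cannot be told apart in these differences.

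MVD in library 16, at 15.4 CPM, stood apart from libraries 10, 12 and 14 at 11.1 to 11.8 CPM, with a gap to the nearest of 0.845 of the range, beyond Dixon's 95% critical value. It was 1 of 64 sets of 4 libraries examined, and chance marks about 1 in 20.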

How the results depend on the processing

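For the 8 genes, 1073 of the log2 fold changes and differences recomputed under an alternative kept their direction and their side of the threshold, 48 lost the call, 6 gained it and 25 changed sign, and of the counts recomputed 356 stayed within 1.5 times. With 1 library left out in U2OS CPT against DMSO, the 5 genes higher became 4 to 5. The 2 lower became 0 to 2 (none without library 26), while 5248 to 6066 of all genes were called. MVD lost its call with DESeq2 (adjusted p = 0.0863) and in 1 edgeR fit of all 32 libraries (0.0661). The study's cutoff, which also asks for a log2 fold change over 1 in size, was added to these alternatives once the data had been seen. It left 1 gene higher and 0 lower of 2569 called in U2OS CPT against DMSO, and 0 of 0 with the ATM inhibitor. It left 2 lower of 2718 in libraries 10, 12, 14 and 16, and 1 lower of 974 in libraries 2, 4, 6 and 8. In U2OS DMSO against HEK293T DMSO it left 1 higher and 2 lower of 7872.

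With the ATM inhibitor, the 1 gene called of all genes became 5 with the likelihood ratio test, 16 with no filter, 0 to 97 with 1 library left out (97 without library 21) and 0 with all 8 libraries labelled HEK293T DMSO as controls, while 0 of the 8 genes were called each time. With those 8 controls, 3 of which resemble U2OS, the sign turned for HMGCS1 (-1.10), SQLE (-0.89), FDFT1 (-0.79) and INSIG1 (-0.021), and with 1 library left out it turned for IDI1 (-0.0149 to 0.0991), FDFT1 (-0.0336 to 0.0781) and DHCR7 (-0.25 to 0.0462).

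In libraries 10, 12, 14 and 16, the value of IDI1 changed sign with DESeq2 (0.00396), with RLE (0.00121) and upper quartile (0.0663) normalization, with filterByExpr (0.0268) and with 1 library left out (-0.193 to 0.0803), and HMGCS1 was called with no filter (adjusted p = 0.0169) and in 1 fit of all libraries (0.021). Grouped by label, which mixes both cell lines, 1 gene was lower of 778 called. SQLE (-1.54, adjusted p = 0.112), DHCR7 (-1.20, 0.109) and INSIG1 (-1.10, 0.0517) lost the call without a change of direction, and MVD (-0.00668) and IDI1 (0.42) changed sign. In libraries 2, 4, 6 and 8 grouped by label, 1 gene was lower of 1604 called, FDFT1 (-0.66, adjusted p = 0.272), SREBF2 (-0.37, 0.205) and MVD (-0.07, 0.887) lost the call, and HMGCS1 (0.0263), SQLE (0.27), DHCR7 (0.49) and INSIG1 (-0.15) changed sign. The difference between U2OS CPT and the ATM inhibitor was called for 2 to 5 of the 8 genes with 1 library left out, and for 2908 to 3463 of all genes. Apart from the groups that mix cell lines, the causes were not tested. No paired analysis was possible because the labels number each library separately and groups share no number. MVD rested on few reads, with 6.24 to 26.4 CPM and as few as 13 counts in library 2, but how depth limits each of the 8 genes was not compared.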
